A study of Mus musculus with 6 samples.

Results

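The platelet-derived growth factor (PDGF) genes were described in mouse palate at E14.5, comparing embryos that lack Shox2 with controls. The members were chosen by gene symbol. They are the 4 ligand genes Pdgfa, Pdgfb, Pdgfc and Pdgfd and the 2 receptor genes Pdgfra and Pdgfrb, 6 of 23420 genes in the files, and all 6 were among the 16604 genes with enough counts to be tested. Mutant embryos were Shox2Cre/-;Nkx2.5F/F, with a null Shox2 allele opposite the Cre allele. Control embryos were Shox2Cre/+;Nkx2.5F/F, with a wild-type Shox2 allele in that place. All embryos were C57BL/6, and both groups carried 1 Cre allele at Shox2 and 2 floxed Nkx2-5 alleles, so the controls, titled WT, are not wild type. Tissue destined to become the anterior part of the hard palate was dissected, and each group had 3 libraries. How many embryos went into a library is not in the labels, so p-values measure the spread between libraries, which may be technical.

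PDGF ligands are secreted dimers that bind a pair of receptor tyrosine kinases. PDGF-A and PDGF-C act mainly through PDGFRA, which neural crest-derived facial mesenchyme carries, and mice without Pdgfra or Pdgfc have palatal clefts. PDGF-B, made largely by endothelium, acts on PDGFRB of pericytes and smooth muscle cells around vessels, and PDGF-D binds PDGFRB as well. Both receptors pass the signal on through PI3 kinase, SRC-family kinases and the MAP kinase cascade.

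Total counts were 52668242 to 53331397 in the mutants and 81950407 to 134813429 in the controls, so depth and genotype coincided. Shox2 was at 3.13 to 5.3 CPM (counts scaled to library size, with TMM) in the mutants and at 68.2 to 88.2 CPM in the controls. Xist, the RNA of the inactive X chromosome, was at 0.261 to 0.333 CPM in the mutants and at 232 to 843 CPM in the controls. Summed CPM of 4 Y-linked genes was 199 to 244 in the mutants and 36.2 to 192 in the controls, and each control library held both Xist and Y-linked transcripts. Xist and genotype therefore coincided. Palatal mesenchyme markers were present in every library, with summed levels, mostly of Col3a1, of 5818 to 6556 CPM in the mutants and 5414 to 6065 CPM in the controls. All 15 epithelium markers were higher in the mutants, at 7560 to 8515 CPM summed against 1350 to 2319 CPM in the controls. All 10 macrophage markers in the files were higher too, at 311 to 396 CPM in the mutants against 68.9 to 122 CPM in the controls. Of the 9 ciliated and airway markers in the files, the 7 that could be tested were higher, at 470 to 546 CPM summed over the list in the mutants against 26 to 128 CPM in the controls, while Scgb1a1 had no count in any library. In tissue RNA, fewer cells of a type and less RNA per cell cannot be told apart.

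The 250 bases before the RefSeq transcription start (GRCm38.p6) are shown for Pdgfra, the receptor gene that fell, and for Pdgfa, the gene of a PDGFRA ligand on the same chromosome. They are read 5′ to 3′ on the gene's strand, with capitals marking a GC box. Pdgfra lies at chr5:75152001-75152250 on the plus strand and Pdgfa at chr5:138994945-138995194 on the minus strand.
Pdgfra: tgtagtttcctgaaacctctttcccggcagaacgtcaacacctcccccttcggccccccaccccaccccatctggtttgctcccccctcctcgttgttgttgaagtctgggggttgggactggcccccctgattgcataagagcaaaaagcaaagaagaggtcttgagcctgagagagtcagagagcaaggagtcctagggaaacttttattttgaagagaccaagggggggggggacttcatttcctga
Pdgfa: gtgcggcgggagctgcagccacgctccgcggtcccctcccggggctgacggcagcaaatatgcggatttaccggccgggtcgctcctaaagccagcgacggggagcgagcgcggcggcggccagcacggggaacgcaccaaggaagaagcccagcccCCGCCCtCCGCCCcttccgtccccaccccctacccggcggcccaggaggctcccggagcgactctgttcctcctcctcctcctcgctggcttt
The Pdgfra stretch had 54.4% G and C, against 72.4% in the Pdgfa stretch. Both strands were searched for 3 motifs. The homeodomain core was spelled TAATTA. The GC box was spelled GGGCGG. The TATA box was spelled TATAAA, and no matches of these motifs shared bases in the PDGF promoters. The Pdgfra stretch held none of these. The Pdgfa stretch held 2 GC boxes, and a second annotated Pdgfa start held 1. The single Pdgfd entry held 1 TATA box and no other motif, and the Pdgfc entry held none. Among 32851 promoters of the same length, the homeodomain core occurred in 4.84%, the GC box in 32.7% and the TATA box in 12.4%. Promoter entries were matched for 4 of the 6 genes, Pdgfa, Pdgfc, Pdgfd and Pdgfra.

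In GENCODE M21 on GRCm38, Pdgfra spans chromosome 5 from 75152292 to 75198215 on the plus strand and Pdgfa spans chromosome 5 from 138976014 to 138997370 on the minus strand. Pdgfc, on chromosome 3 from 81036416 to 81214040, shares its chromosome with Shox2, which lies from 66971727 to 66981771. Pdgfb lies on chromosome 15 from 79995874 to 80014977, Pdgfd on chromosome 9 from 6168584 to 6378850 and Pdgfrb on chromosome 18 from 61045150 to 61085061. Whether the counting used strand is not stated. Exons on the opposite strand overlap Pdgfa over 813 bases (6330403L08Rik), Pdgfc over 147 bases (Gm16000) and Pdgfra over 456 and 166 bases (Gm42802 and Gm42803), and reads from these cannot be told apart from the PDGF genes.

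Among the 6 genes, Pdgfra fell, Pdgfb rose, and the other 4 did not pass the test. Across all tested genes 45.8% passed, 24.1% higher and 21.7% lower, by edgeR's quasi-likelihood test at an adjusted p under 0.05. A share of 2 in 6 is thus no larger than the background. CPM of the groups did not overlap for the same 2 genes, where 58.9% of all tested genes had groups that did not overlap. Correcting for GC content and gene length without recentring turned the split of all calls to 2816 higher and 5791 lower, against 3999 higher and 3607 lower, and put the median log2 fold change of all genes at -0.205, against -0.004 without the correction. Pdgfra and Pdgfb kept their direction and their calls under it.

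**Figure D1:**
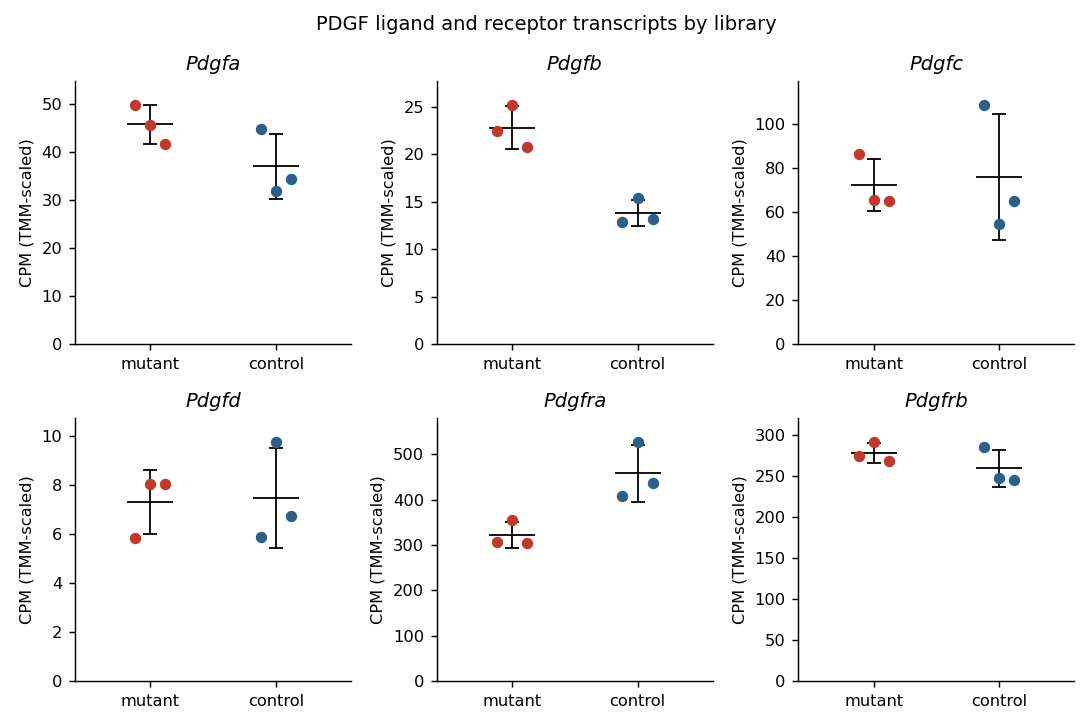
TMM-scaled CPM of the 6 PDGF genes in each library, with 3 mutant libraries at the left and 3 control libraries at the right of each panel. Points are libraries, the bar is the mean and the whiskers the SD. For Pdgfra all mutants (303 to 355 CPM) lie below all controls (408 to 528 CPM), and for Pdgfb all mutants (20.7 to 25.2 CPM) lie above all controls (12.8 to 15.4 CPM).

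Pdgfb encodes the ligand that recruits pericytes and smooth muscle cells to vessels. Its level was 22.5, 25.2 and 20.7 CPM in mutant replicates 1, 2 and 3 and 12.8, 15.4 and 13.2 CPM in control replicates 1, 2 and 3. The lowest mutant stood above the highest control. Means were 22.8 ± 2.24 CPM in the mutants and 13.8 ± 1.39 CPM in the controls (SD, n = 3 each), a 1.65-fold rise (log2 fold change 0.72, SE 0.13, edgeR adjusted p = 0.00347). Of all tested genes, 19.8% had a log2 fold change at or above that of Pdgfb. It stayed called when any 1 of the 6 libraries was left out.

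Markers of the cells that make and receive PDGF-B were set beside this rise. Across all tested genes, 24.1% were called higher and 21.7% lower. Of 12 endothelium markers, 2 rose, none fell and 10 did not pass, with a median log2 fold change of 0.22. Their summed level was 570 to 737 CPM in the mutants and 478 to 644 CPM in the controls, so the groups overlapped. The endothelial count was 1 or 0 under several settings, among them 1 without control replicate 1, 2 or 3 and 0 without mutant replicate 2 or 3. The 2 that rose were Sox17, a transcription factor of arterial endothelium (log2 fold change 0.65), and Robo4, an endothelial receptor (0.38). Of 13 mural cell markers, 11 were tested, and 2 of them rose and none fell, with a median of 0.38 (4 rose with DESeq2 or with the Y-linked covariate). Mural markers summed to 633 to 732 CPM in the mutants and 466 to 559 CPM in the controls. These groups did not overlap, as for 58.9% of all tested genes taken singly. The largest part of that sum was Notch3, at 260 to 277 CPM in the mutants and 171 to 191 CPM in the controls. Rgs5, a pericyte gene, rose to 43.5 ± 6.56 CPM in the mutants, against 20.9 ± 3.23 CPM in the controls (log2 fold change 1.06), and Notch3, the Notch receptor of mural cells, rose by 0.55. None of the endothelial or mural markers was at 0 in all libraries. The part of these cells, of macrophages and of epithelium in the Pdgfb result was not tested.

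Pdgfa encodes a ligand that epithelium supplies to PDGFRA on the mesenchyme beneath it. It stood at 49.8, 45.7 and 41.7 CPM in mutant replicates 1, 2 and 3 and at 44.8, 32 and 34.3 CPM in control replicates 1, 2 and 3. Control replicate 1 was the highest control and lay within the range of the mutants. The means were 45.7 ± 4.04 CPM in the mutants and 37 ± 6.81 CPM in the controls, and the log2 fold change of 0.31 (95% interval -0.02 to 0.63) did not pass (edgeR adjusted p = 0.11). Without control replicate 1 it was 0.45 and passed (edgeR adjusted p = 0.0112). It was not called when any other single library was left out. Under the GC and length correction it was at 0.02 when not recentred (edgeR adjusted p = 0.935) and at 0.24 when centred (edgeR adjusted p = 0.241). With the Y-linked covariate it was at 0.04 (edgeR adjusted p = 0.869). All 15 epithelium markers rose beside it, with a median log2 fold change of 1.58, and their part in the Pdgfa values was not tested.

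Pdgfc encodes the other main PDGFRA ligand, which is secreted in a latent form and activated by proteolysis. Its level was 86.3, 65.7 and 65.3 CPM in the mutants and 109, 54.4 and 65 CPM in the controls, again in the order of replicates. Control replicate 1 was the highest of all 6 libraries and control replicate 2 the lowest. Means were 72.4 ± 12 CPM in the mutants and 76.1 ± 28.8 CPM in the controls. The log2 fold change was -0.07 (95% interval -0.66 to 0.52, edgeR adjusted p = 0.84), and without control replicate 1 it turned to 0.27 (edgeR adjusted p = 0.187). It was -0.58 with the Y-linked covariate (edgeR adjusted p = 0.0808). Under the GC and length correction it was -0.32 when not recentred (edgeR adjusted p = 0.33) and -0.1 when centred (edgeR adjusted p = 0.767).

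Pdgfd, which encodes the fourth ligand, was the lowest of the family. It had 5.81, 8.05 and 8.04 CPM in the mutants and 5.86, 9.76 and 6.74 CPM in the controls, and the groups overlapped. The log2 fold change was -0.03 (95% interval -0.59 to 0.53, edgeR adjusted p = 0.927) and its sign changed with the scaling, to 0.04 with library size only and 0.07 with the centred GC and length correction. The counts behind it were 1187 over the mutants and 2352 over the controls.

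Pdgfra encodes the receptor of palatal mesenchyme. Its level was 307, 355 and 303 CPM in mutant replicates 1, 2 and 3 and 408, 528 and 437 CPM in control replicates 1, 2 and 3. Every mutant lay below every control, and replicate 2 was the highest in each group. Means were 322 ± 28.5 CPM in the mutants and 457 ± 62.5 CPM in the controls (SD, n = 3 each). The fold was 0.703 (log2 fold change -0.51, SE 0.12, edgeR adjusted p = 0.0103), and 2410 of 16604 tested genes had a log2 fold change at or below it. It stayed called when any 1 of the 6 libraries was left out, with log2 fold changes from -0.6 to -0.39. With the summed log2 level of Y-linked genes as a covariate, Pdgfra was at -0.29 and not called (edgeR adjusted p = 0.138), while Pdgfb was at 0.87 and called (edgeR adjusted p = 0.0168). In that fit 29.4% of all tested genes were called. Summed CPM of the Y-linked genes was 192 in control replicate 1, near the 199 to 244 of the mutants, and 36.2 and 87.5 in control replicates 2 and 3. The fit thus sets the mutants mostly against control replicate 1. Xist is left unadjusted in it, so the fit cannot separate sex from genotype.

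Markers of palatal mesenchyme did not all move with Pdgfra. Across all tested genes, 24.1% were called higher and 21.7% lower. Of the 15 markers, 6 fell, 1 rose and 8 did not pass, with a median log2 fold change of -0.19. Their summed level overlapped between the groups. Most of that sum was Col3a1, which did not pass, at 3638 to 4212 CPM in the mutants and 2908 to 3426 CPM in the controls. The markers that fell included the targeted gene Shox2, the homeobox gene Msx1 (-2.07) and Twist1, a transcription factor of cranial mesenchyme (-0.44). Without replicate 1 of both groups, 7 fell and 4 rose, and with the Y-linked covariate 4 fell and none rose. Of 11 osteoblast markers, 10 were tested and 9 of these fell. The summed level of the list was 4887 to 5988 CPM in the mutants against 2971 to 10053 CPM in the controls, where control replicate 1 was the lowest of all libraries. Most of that sum was Col1a1, the tested marker that did not pass, at 4270 to 5515 CPM in the mutants and 1857 to 6328 CPM in the controls. Without mutant replicate 2, 5 osteoblast markers fell, and with the Y-linked covariate 3 fell and 1 rose. Of 9 chondrocyte markers, 3 fell, and their summed level was 226 to 240 CPM in the mutants against 375 to 750 CPM in the controls. Of 11 skeletal muscle markers, 10 were tested and 6 of these fell, but 3 fell without mutant replicate 1 and 2 without mutant replicate 2 or 3. The muscle list summed to 8.95 to 13.44 CPM in the mutants and 13.39 to 84.6 CPM in the controls, so the groups overlapped. Of 9 glia and neuron markers, 3 fell, at 46.8 to 78.6 CPM in the mutants against 81.1 to 161 CPM in the controls, and 5 fell without control replicate 3. No marker in these 4 lists was at 0 in all libraries. The part of bone, cartilage, muscle and nerve cells in the Pdgfra result was not tested. Nor was that of epithelium, ciliated and airway cells and macrophages, whose tested markers were all higher in the mutants.

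Pdgfrb encodes the receptor of mural cells, which facial mesenchyme carries as well. Its level was 275, 292 and 268 CPM in the mutants and 285, 248 and 245 CPM in the controls. Control replicate 1 lay among the mutants, and the groups overlapped. Means were 278 ± 12.5 CPM in the mutants and 260 ± 22.3 CPM in the controls. The log2 fold change of 0.1 did not pass (95% interval -0.09 to 0.29, edgeR adjusted p = 0.349). It was -0.16 under the GC and length correction that was not recentred, 0.06 when that correction was centred and -0.02 with the Y-linked covariate. Expressed as a fold, the interval ran from 0.939 to 1.22.

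**Figure D2:**
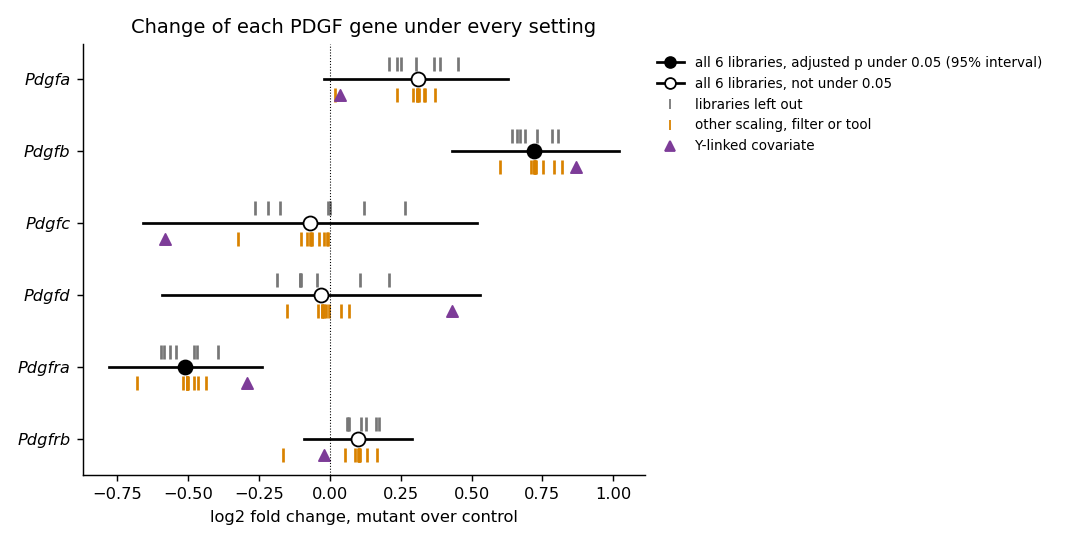
Log2 fold change (mutant over control) of each PDGF gene. Circles with lines give the fit to all 6 libraries with its 95% interval, filled where the adjusted p was under 0.05, grey ticks give fits with libraries left out, orange ticks give other scalings, filters and tools, and triangles give the fit with a Y-linked covariate. The values for Pdgfra stay below 0 and those for Pdgfb above 0 in each fit. Those for Pdgfa, which was not called with all 6 libraries, also stay above 0. Pdgfc, Pdgfd and Pdgfrb have values on both sides.

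The ratio of Pdgfra to Pdgfrb was lower in every mutant library than in every control library. This ratio of CPM within a library does not depend on scaling. It was 1.12, 1.21 and 1.13 in the mutants and 1.43, 2.12 and 1.78 in the controls, with no overlap. Means were 1.15 ± 0.0509 in the mutants and 1.78 ± 0.348 in the controls, a log2 difference of -0.61. In an exact two-sided permutation test over the libraries p was 0.1, the smallest that 3 against 3 allows (adjusted 0.133 over 4 ratios, all chosen after their values were seen).

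Ligand to receptor ratios were taken in the same way. The ratio of Pdgfb to Pdgfrb was 0.0818, 0.0861 and 0.0772 in the mutants and 0.045, 0.062 and 0.0538 in the controls, so every mutant was higher. Pdgfa to Pdgfra was 0.162, 0.129 and 0.138 in the mutants and 0.11, 0.0606 and 0.0786 in the controls, also without overlap. Each had an exact permutation p of 0.1. Every ratio without overlap, that of Pdgfra to Pdgfrb included, holds Pdgfra or Pdgfb. CPM of these genes already did not overlap, as for 58.9% of all tested genes, so the ratios are no independent result. Pdgfc to Pdgfra overlapped, with 0.281, 0.185 and 0.215 in the mutants and 0.267, 0.103 and 0.149 in the controls (exact permutation p = 0.3). In that last ratio replicate 1 was the highest and replicate 2 the lowest of both groups.

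**Figure D3:**
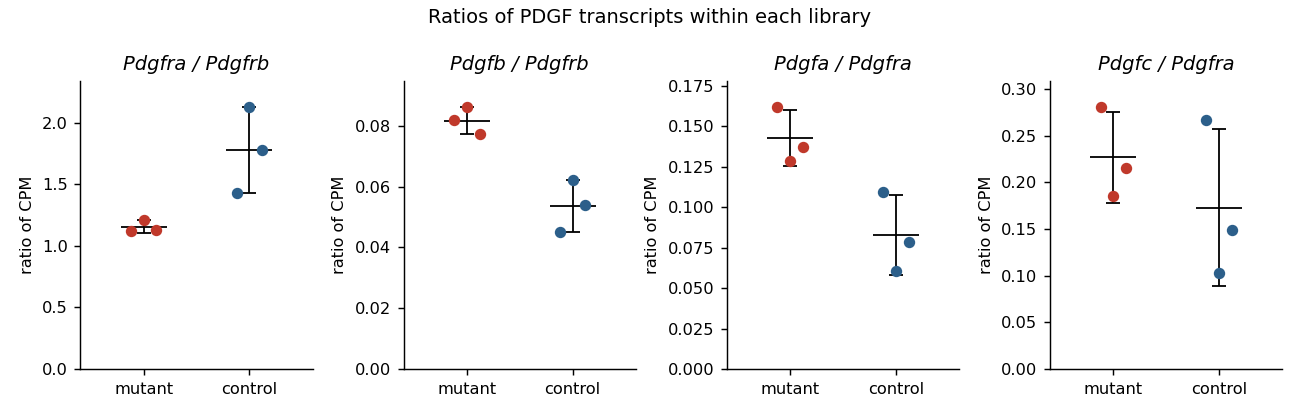
Ratios of CPM within each library for 4 pairs of PDGF genes, mutants at the left and controls at the right, with the mean (bar) and SD (whiskers) of 3 libraries. Pdgfra to Pdgfrb is lower in all mutants (1.12 to 1.21) than in all controls (1.43 to 2.12), and the Pdgfc to Pdgfra ratio overlaps.

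Levels of different genes were compared as CPM per kb of exon, using the union of GENCODE exons. In the mutants Pdgfrb was highest at 50.8 ± 2.28 and Pdgfra followed at 32.1 ± 2.84 CPM per kb. Pdgfa at 14.7 ± 1.3 and Pdgfc at 14.2 ± 2.36 did not differ beyond their spread, and Pdgfb at 5.47 ± 0.539 and Pdgfd at 2.31 ± 0.408 came last. In the controls Pdgfrb at 47.4 ± 4.07 and Pdgfra at 45.6 ± 6.24 did not differ beyond their spread, and neither did Pdgfc at 14.9 ± 5.66 and Pdgfa at 11.9 ± 2.18. Pdgfb at 3.32 ± 0.334 and Pdgfd at 2.36 ± 0.648 were again lowest, with control replicate 2 of Pdgfd at 3.09 touching the range of Pdgfb. The order of the receptor means rests on the length used in the controls, and the gap between them does so in both groups. With the longest coding transcript, chosen after the data were seen, Pdgfra was at 47.1 and Pdgfrb at 51.3 in the mutants, against 66.9 and 47.9 in the controls. Of the summed per-kb level of the 4 ligands, Pdgfb took 13.4%, 16.7% and 14.8% in the mutants and 7.59%, 13.3% and 10.9% in the controls, while Pdgfc and Pdgfa together made up most of it in every library.

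Ligand processing genes act on the ligands before they reach a receptor. Of 10 measured, 2 rose, 2 fell and 6 did not pass, with a median log2 fold change of -0.09, a share no larger than the 45.8% of all tested genes. The proprotein convertase Furin, which can cleave PDGF-A and PDGF-B precursors, rose to 200 ± 22.2 CPM in the mutants, against 146 ± 8.79 CPM in the controls (0.45, edgeR adjusted p = 0.00706). Under the GC and length correction that was not recentred, Furin was at 0.24 and not called (edgeR adjusted p = 0.0729). When that correction was centred, Furin was at 0.45 and called (edgeR adjusted p = 0.00776). Pcsk5, another convertase, fell to 44.6 ± 1.28 CPM in the mutants, against 70.8 ± 10.6 CPM in the controls (-0.67, edgeR adjusted p = 0.00289). Pcsk6, of the same enzyme family, fell to 72.3 ± 12 CPM in the mutants, against 146 ± 55.2 CPM in the controls (-1.02, edgeR adjusted p = 0.0235), but its call was lost when control replicate 2 or 3 or mutant replicate 1 or 2 was left out, with adjusted p from 0.0681 to 0.0735, or with the Y-linked covariate. St14, the membrane protease matriptase, which can activate PDGF-D and is made by epithelium, rose to 78.6 ± 9.58 CPM in the mutants, against 28.5 ± 7.79 CPM in the controls (1.46, edgeR adjusted p = 0.00152). Plat, the tissue plasminogen activator that activates PDGF-C, had 24.5 ± 3.04 CPM in the mutants and 30 ± 1.89 CPM in the controls and did not pass (edgeR adjusted p = 0.0705).

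Of 9 receptor partners and ligand-binding genes, 3 rose and none fell, with a median of 0.25, beside 45.8% of all tested genes called. Lrp1, a large endocytic receptor that associates with PDGFRB, rose to 659 ± 108 CPM in the mutants, against 456 ± 27.6 CPM in the controls (0.53, edgeR adjusted p = 0.0122). Nrp1, a co-receptor on endothelium and mural cells, rose to 239 ± 37.9 CPM in the mutants, against 157 ± 5.05 CPM in the controls (0.61, edgeR adjusted p = 0.00444). Neither was called with the Y-linked covariate. A2m, a plasma protein that binds PDGF-B, stood at 16.8, 6.6 and 7.67 CPM in the mutants and 1.22, 4.7 and 4.34 CPM in the controls (1.59, edgeR adjusted p = 0.0491), and it was not called when any single library was left out (adjusted p from 0.0583 to 0.153). Without control replicate 1 this list had 5 members higher and 2 lower.

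Of 34 measured genes listed as effectors downstream of the receptors, 8 rose, 8 fell and 18 did not pass, with a median of -0.06. This share is close to the 45.8% of all tested genes. Under the GC and length correction that was not recentred, 6 were higher and 18 lower, with a median of -0.238. When that correction was centred, 9 were higher and 9 lower, with a median of -0.022. Fyn, a SRC-family kinase, fell to 86.3 ± 7.94 CPM in the mutants, against 164 ± 30.2 CPM in the controls (-0.92, edgeR adjusted p = 0.00223). Mapk3, the kinase ERK1, rose to 142 ± 6.23 CPM in the mutants, against 99.4 ± 4.91 CPM in the controls (0.51, edgeR adjusted p = 0.00118). Pik3cd, the PI3 kinase catalytic subunit of leukocytes, rose by 0.79 on the log2 scale. Pdk1, which rose by 0.6, encodes a pyruvate dehydrogenase kinase. It is thus no effector of the receptors, though it is counted among the 8 that rose. Pdpk1, the kinase that activates AKT, did not pass (0.18, edgeR adjusted p = 0.263). Among PI3 kinase genes Pik3cb (0.73), Pik3r1 (0.38) and Pik3r2 (0.26) were higher, while Pik3ca (-0.26) and Pik3r3 (-0.44) were lower.

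Among 19 attenuators of the receptors, 2 rose, 2 fell and 15 did not pass, with a median of 0.12, beside 45.8% of all tested genes called. Inppl1, the lipid phosphatase SHIP2, fell to 134 ± 2.43 CPM in the mutants, against 184 ± 8.94 CPM in the controls (-0.46, edgeR adjusted p = 0.00139). Ptpn2, a tyrosine phosphatase, fell by 0.42 on the log2 scale. The 2 that rose were Cblc (1.44), a ubiquitin ligase made mainly in epithelium, and Inpp5d (1.01), the lipid phosphatase SHIP1 of blood cells. Cblc was not called with the Y-linked covariate (adjusted p = 0.0578). The count of attenuators called was 7 without control replicate 1 (4 higher and 3 lower) and 8 without mutant replicate 1 (6 higher and 2 lower). It was 7 with the Y-linked covariate (1 higher and 6 lower). Under the GC and length correction it was 7 when not recentred (2 higher and 5 lower) and 6 when centred (4 higher and 2 lower).

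Relatives of the PDGF family are the VEGF ligands and receptors and the KIT, CSF1 and FLT3 receptors with their ligands. Of 15 measured, 6 rose, 2 fell and 7 did not pass, with a median of 0.35, beside 45.8% of all tested genes called. Csf1r, the receptor of macrophages, rose to 78.2 ± 16.5 CPM in the mutants, against 24.9 ± 6.46 CPM in the controls (1.65, edgeR adjusted p = 0.00152). Kit, the receptor of mast cells and melanocytes, rose to 47.7 ± 4.05 CPM in the mutants, against 27.7 ± 1.51 CPM in the controls (0.78, edgeR adjusted p = 0.000752). Flt3 had 1.04 ± 0.105 CPM in the mutants and 0.275 ± 0.0908 CPM in the controls (1.93), a rise not called with the Y-linked covariate (1.35, edgeR adjusted p = 0.097), and its ligand Flt3l rose by 1.25. The calls in this list numbered 5, with 4 higher and 1 lower, without control replicate 2 or 3, and 3, all higher, with the Y-linked covariate.

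**Figure D4:**
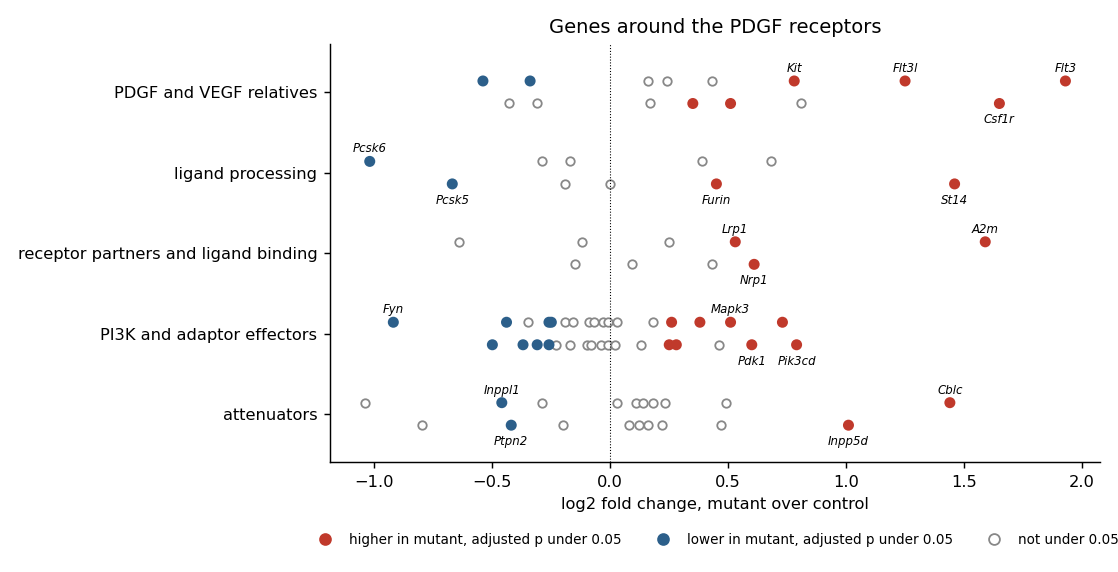
Log2 fold change (mutant over control) of each measured gene in 5 lists around the PDGF receptors, with 1 point per gene. Red and blue points passed the edgeR test as higher or lower in the mutants and open points did not, and the labelled genes are those with the smallest p in each list. The list of effectors has 8 red and 8 blue points beside 18 open ones, and its red points include Pdk1, which is no effector of the receptors. No receptor partner is called lower.

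For each gene the most alike patterns were taken by Pearson correlation of log2 CPM over the 6 libraries, among 10675 other genes. With so many genes, 6 libraries and 2 genotypes, high values are found for every member and are given only as a description. Pdgfb was most like Rgs5 (r = 0.999), Braf (0.995) and Rb1 (0.994), all higher in the mutants. Pdgfra was most like Tln2 (0.993), Sh3pxd2b (0.993) and Ehbp1 (0.99), all lower in the mutants. Pdgfa was most like Kdm3b (0.989), Pdgfc like Msi1 (0.985), Pdgfd like Lingo1 (0.993) and Pdgfrb like Osbpl8 (0.986), none of which passed the test.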

How the data were processed

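RNA sequencing of mouse palate was analysed from 6 libraries, 3 mutant and 3 control, grouped by title and genotype label. The authors deposited 1 table of raw counts per library, in whole numbers by gene symbol. Per the submitters' processing notes, HISAT2 and StringTie were used with mm9 and mm10 named as builds (no versions), and 4 of the 6 tables name HISAT2, per the file headers. Counter, strand setting and annotation: not given in the sources used here.

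The members and the gene lists were chosen with earlier results of these data known. The counts went unmodified into edgeR 4.0.16 (R 4.3.3): filterByExpr by group, TMM scaling, and the quasi-likelihood F test of mutant against control without covariates, with Benjamini-Hochberg adjustment over 16604 genes at 0.05. Standard errors are the absolute log2 fold change over the square root of F, and 95% intervals use the fit's degrees of freedom. The fit was tried on simulated counts in which far fewer genes changed than were called here. That trial cannot vouch for these calls. Alternatives used DESeq2 1.42.0, limma 3.58.1, other scalings and filters, a GC and length correction, halved counts, covariates and left-out libraries. Within each pathway list, up to 4 called genes with the smallest p were to be named, and the 3 most alike genes of each member. For Pdgfa, Pdgfc, Pdgfd and Pdgfrb only the first of the 3 is printed. Plat, Pdpk1, the PI3 kinase genes and the named cell markers lie outside that rule and were chosen after their values were seen. Some list members are not reported here by name. Symbols were matched to GENCODE M21 (93% of 23420), and promoter sequences are from RefSeq on GRCm38.p6. Among counts of 5 to 50, even values made up 99.7% in mutant replicate 1 and 63.6% to 73% in the other libraries, so counts may come in pairs of mates and counting error is understated. Libraries of the same group all differed by more than sampling noise (chi-square per degree of freedom 16.1 to 144.1).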

Additional observations from a re-analysis of the deposited data

How the results depend on the processing

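Pdgfb kept its direction and its call in all 18 alternatives, with log2 fold changes from 0.6 to 0.87. Pdgfra kept its direction in all 18 and its call in 17. The exception was the Y-linked covariate (-0.29, edgeR adjusted p = 0.138), a fit that sets the mutants mostly against control replicate 1. With that covariate 4874 genes were called in all, against 7606 without it, and 1 PDGF gene, against 2. Pdgfa passed with the replicate block (0.32, adjusted p = 0.0488) and without replicate 1 of both groups (0.39, adjusted p = 0.00692). The replicate block called 7022 genes. The deviations of same-numbered libraries correlated at 0.0199 to 0.0824, so the numbers were not taken to pair libraries. Changes of sign occurred for values that did not pass: Pdgfd with library size only (0.04), the centred GC and length correction (0.07) and the Y-linked covariate (0.43), Pdgfrb with the correction that was not recentred (-0.16) and the Y-linked covariate (-0.02), and Pdgfc without replicate 1 of both groups (0.12). With each library left out in turn, 5780 to 7659 genes and 2 to 3 PDGF genes were called. The log2 fold changes then ranged from 0.21 to 0.45 for Pdgfa, 0.64 to 0.8 for Pdgfb, -0.26 to 0.27 for Pdgfc, -0.19 to 0.21 for Pdgfd, -0.6 to -0.39 for Pdgfra and 0.06 to 0.16 for Pdgfrb. The cause of these differences was not tested. Of 19 named pathway genes over the alternatives, 323 values kept their call, 18 did not pass and none changed sign. Of 270 list counts, 233 stayed within 1.5 times.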

Other observations

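Pdgfrl, a receptor-like gene without a kinase domain, is no member of the family as chosen here and was looked at after the values were seen. It had 23.5, 22.5 and 25.2 CPM in the mutants and 12.9, 25.9 and 23.9 CPM in the controls, with control replicate 1 lowest and the others close together (log2 fold change 0.18, edgeR adjusted p = 0.565). Low-end values of control replicate 1 also occurred for Csf1r and A2m, at 17.4 and 1.22 CPM. Among the PDGF genes this library was the highest control for Pdgfa, Pdgfc and Pdgfrb. It was the lowest control for Pdgfb, Pdgfd and Pdgfra.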
